A study of Mus musculus with 12 samples.

Results

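The fibril-associated collagens and collagen VI of the developing mouse forelimb were taken as 10 genes, chosen by name from the 15671 rows of the RNA table: *Col9a1*, *Col9a2* and *Col9a3* for collagen IX, *Col12a1*, *Col14a1*, *Col16a1* and *Col22a1* for collagens XII, XIV, XVI and XXII, and *Col6a1*, *Col6a2* and *Col6a3* for collagen VI. All 10 were found. The choice went by family and used no measured value, though earlier results of these data were known when it was made. RNA-seq was carried out on Scx-GFP+ cells sorted from forelimbs of E15.5 embryos, with 3 *Scx*-/- samples and 3 littermate control samples, all carrying the *Scx-GFP* transgene, in which *Scx* regulatory sequence drives the green fluorescent protein. In the null allele a *lacZ* cassette replaces the whole *Scx* coding sequence, and the labels call the other group controls without giving its genotype. Scx binding was mapped by ChIP-seq with an anti-FLAG antibody in whole forelimbs of E13.5 embryos homozygous for the *Scx* Flag allele, whose own Scx protein carries a FLAG tag, with 3 ChIP and 3 input samples, each ChIP sample pooled from several embryos. The 2 assays therefore differed in stage, allele and cells. The peak table listed 12097 regions of 200 bp, of which 28 were assigned to the 10 genes.

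Fibril-associated collagens do not build fibrils themselves. Their triple helix is interrupted, and they attach to the surface of fibrils of collagen I or collagen II, from which their large noncollagenous domains project into the surrounding matrix. Collagens XII and XIV coat collagen I fibrils in tendon, ligament and other dense connective tissue, collagen IX coats the collagen II fibrils of cartilage, and collagen XXII is known from the junction of muscle and tendon. Collagen VI is no fibril-associated collagen. Its alpha 1, alpha 2 and alpha 3 chains assemble into beaded microfilaments that surround cells, including tendon cells, and link them to the fibrillar matrix, and in humans mutations in these chains cause muscle disease with joint contractures. Scx is a transcription factor of the basic helix-loop-helix kind that marks tendon progenitors and binds DNA at E-boxes.

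Scx bound close to the start of *Col16a1* and *Col6a2*, inside *Col12a1*, *Col14a1* and *Col22a1*, and in intergenic sequence around *Col6a1*, *Col6a2*, *Col6a3* and *Col12a1*. The sequences of 8 of these regions are printed on the plus strand of mm10. They are the 2 regions nearest to the start of *Col16a1*, 3 regions at the collagen VI genes in which a Scx core lies close to the center, and 1 intronic region each of *Col12a1*, *Col14a1* and *Col22a1*, of which that of *Col14a1* holds the core. Capitals mark the Scx core, taken as CAGATG with its reverse complement CATCTG, the palindrome CAGCTG or the palindrome CATATG, and the core of Nfat factors, TGGAAA or its reverse complement TTTCCA. The region at the start of *Col6a2* is described without its sequence.
Col16a1 promoter, 130 bp upstream of the start, chr4:130047611-130047810: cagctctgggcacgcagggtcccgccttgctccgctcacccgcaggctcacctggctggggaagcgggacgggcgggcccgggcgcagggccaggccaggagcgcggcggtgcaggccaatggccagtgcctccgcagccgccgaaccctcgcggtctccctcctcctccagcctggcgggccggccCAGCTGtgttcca
Col16a1, 1548 bp upstream, chr4:130046193-130046392: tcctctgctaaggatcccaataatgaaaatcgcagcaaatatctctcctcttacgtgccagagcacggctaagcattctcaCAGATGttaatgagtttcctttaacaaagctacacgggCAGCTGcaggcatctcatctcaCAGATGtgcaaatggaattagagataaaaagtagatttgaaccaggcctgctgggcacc
Col6a1, 6767 bp upstream, chr10:76732836-76733035: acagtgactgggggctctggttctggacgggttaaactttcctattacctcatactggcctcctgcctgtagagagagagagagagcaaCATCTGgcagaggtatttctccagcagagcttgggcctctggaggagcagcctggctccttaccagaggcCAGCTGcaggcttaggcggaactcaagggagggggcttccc
Col6a1 and Col6a2, between the genes, chr10:76642935-76643134: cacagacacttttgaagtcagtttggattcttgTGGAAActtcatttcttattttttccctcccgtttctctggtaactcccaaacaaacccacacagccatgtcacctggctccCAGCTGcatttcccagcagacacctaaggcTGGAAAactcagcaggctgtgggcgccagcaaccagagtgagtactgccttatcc
Col6a3, 193091 bp downstream of its start, chr1:90650781-90650980: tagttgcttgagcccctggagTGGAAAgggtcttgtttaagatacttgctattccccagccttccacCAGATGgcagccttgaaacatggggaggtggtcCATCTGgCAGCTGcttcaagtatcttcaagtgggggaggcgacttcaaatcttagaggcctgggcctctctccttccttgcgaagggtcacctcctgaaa
Col14a1, intron 5, chr15:55358912-55359111: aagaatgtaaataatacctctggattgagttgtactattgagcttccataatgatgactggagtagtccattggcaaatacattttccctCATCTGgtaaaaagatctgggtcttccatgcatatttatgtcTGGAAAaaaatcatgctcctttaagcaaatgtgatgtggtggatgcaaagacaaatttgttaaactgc
Col12a1, intron 13, chr9:79689068-79689267: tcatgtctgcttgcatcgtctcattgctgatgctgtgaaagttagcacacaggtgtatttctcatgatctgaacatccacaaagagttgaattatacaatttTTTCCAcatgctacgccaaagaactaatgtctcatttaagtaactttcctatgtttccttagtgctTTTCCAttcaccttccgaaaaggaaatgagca
Col22a1, intron 22, chr15:71927242-71927441: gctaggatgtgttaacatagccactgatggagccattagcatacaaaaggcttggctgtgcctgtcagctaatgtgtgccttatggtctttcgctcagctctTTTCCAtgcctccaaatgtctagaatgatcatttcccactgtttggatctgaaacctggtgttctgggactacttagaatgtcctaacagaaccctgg

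The expression values are FPKM, fragment counts scaled to transcript length and to the size of the library, and the deposited table gives for each gene the authors' mean over the 3 samples of a group. Values of single samples were not analysed here, so no value carries an error and no difference between genotypes was tested. Differences are given as log2 ratios of *Scx*-/- over control after adding 0.1 FPKM to both means, which understates changes of low genes. A gene was counted as higher or lower when the ratio passed 1.5-fold and the mean of both groups was at least 1 FPKM. Such a count describes the means and is not a statistical call. In a bulk sample, fewer cells of a type and less RNA per cell cannot be told apart.

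The collagen VI chains and collagens XII and XIV were abundant, and their levels were close to equal in the 2 genotypes. *Col6a1* had 212 FPKM in control cells and 229 FPKM in *Scx*-/- cells, a log2 ratio of 0.11 and the highest level among the 10 genes. *Col6a2* had 185 FPKM in control cells and 190.1 FPKM in *Scx*-/- cells, a log2 ratio of 0.04. *Col6a3*, whose product is the longest of these chains, had 143 FPKM in control cells and 145 FPKM in *Scx*-/- cells, a log2 ratio of 0.02. All 3 chains were thus slightly above control in the mutant means, by 1.62% to 7.94%, and their sum was 540.2 FPKM in control cells and 564.2 FPKM in *Scx*-/- cells. Collagen VI made 59.3% of the FPKM of the 10 genes in control and 60.4% in *Scx*-/- cells. The highest of its chains exceeded the lowest by 1.48 times in control and by 1.57 times in the mutant.

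*Col12a1*, which encodes the single chain of collagen XII, had 186.9 FPKM in control cells and 187.1 FPKM in *Scx*-/- cells. *Col14a1*, which encodes that of collagen XIV, had 128.9 FPKM in control cells and 128.3 FPKM in *Scx*-/- cells. The means of these 2 tendon collagens differed by 0.102% and by -0.464% between genotypes, the smallest differences among the 10 genes. *Col16a1* encodes collagen XVI, a minor collagen of skin and cartilage matrix. Its level was 24.9 FPKM in control cells and 25.7 FPKM in *Scx*-/- cells, a log2 ratio of 0.05. By mean level *Col6a1* stood at rank 168 of the 15671 genes, *Col6a2* at 198, *Col12a1* at 199, *Col6a3* at 264, *Col14a1* at 297 and *Col16a1* at 2252.

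The 3 chains of collagen IX, which form one heterotrimer, were listed at low and similar levels. *Col9a1* had 8.54 FPKM in control cells and 8.62 FPKM in *Scx*-/- cells. *Col9a2* had 8.34 FPKM in control cells and 8.54 FPKM in *Scx*-/- cells. *Col9a3* had 11.9 FPKM in control cells and 11.1 FPKM in *Scx*-/- cells, a log2 ratio of -0.10 and a difference of -6.73%. The chains of collagen IX thus lay on both sides of control, and their sum was 28.8 FPKM in control cells and 28.3 FPKM in the mutant. Their highest chain exceeded the lowest by 1.43 times in control and by 1.30 times in *Scx*-/- cells.

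*Col22a1* was the exception among the 10 genes, and it was also the lowest. It had 0.922 FPKM in control cells and 0.400 FPKM in *Scx*-/- cells, a log2 ratio of -1.03, which without the added 0.1 FPKM is a 2.30-fold lower mean. Its mean of 0.661 FPKM, at rank 12804, was below the minimum of 1 FPKM, so the gene did not enter the count. Ratios of low genes scatter widely, and among the 2155 genes with 0.331 to 1.32 FPKM, within a factor of 2 of its level, 5.2% were more than 1.5-fold lower in *Scx*-/- cells and 140 genes were more than 1.5-fold higher. Of these 2155 genes, 23, or 1.07%, had a ratio at or below that of *Col22a1*, the gene itself included. With 1 FPKM added in place of 0.1 FPKM its log2 ratio was -0.46, which does not pass 1.5-fold. The difference between these 2 means was not tested here.

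**Figure D1:**
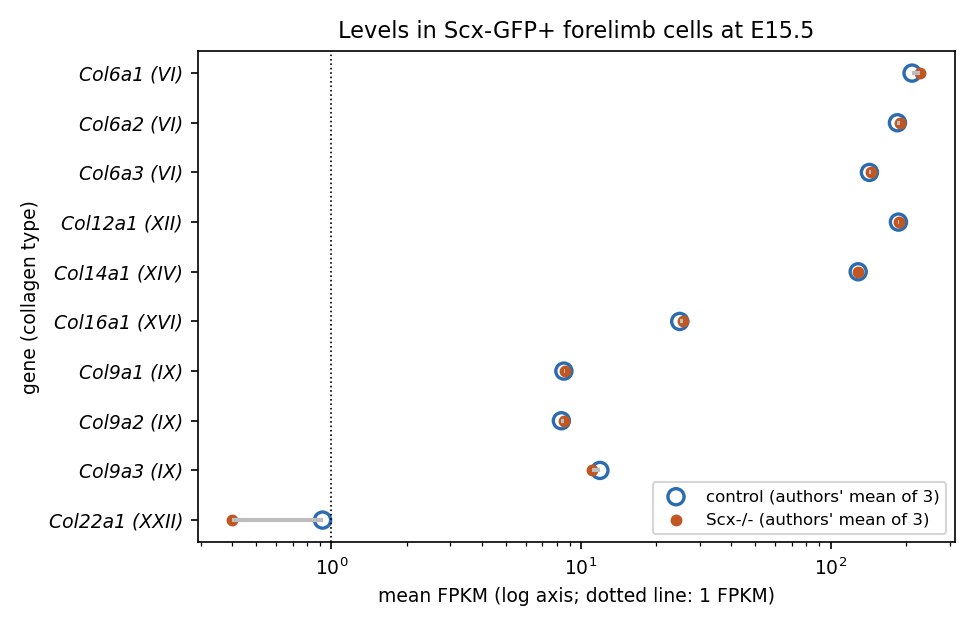
Mean FPKM of each gene on a log axis, with the authors' mean over 3 control samples as open circles and over 3 *Scx*-/- samples as filled circles, joined by a grey line. The circles overlap or nearly touch for 9 genes from 8.34 to 229 FPKM and are apart for *Col22a1*, at 0.922 and 0.400 FPKM.

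Of the 10 genes, 9 passed the minimum of 1 FPKM, and 0 of these 9 were past 1.5-fold in either direction. Among all 12123 genes of at least 1 FPKM, 0.462% were more than 1.5-fold higher and 0.536% more than 1.5-fold lower in *Scx*-/- cells, so a count of 0 among 9 genes is near this background. The ratios of the 9 genes ran from -0.10 to 0.11 on the log2 scale, with a median of 0.02, and 7 of them were above 0. Over all genes of at least 1 FPKM the median was -0.00037 and the interquartile range ran from -0.08 to 0.08. Among the 415 genes of at least 100 FPKM the interquartile range ran from -0.06 to 0.06. In order of mean level the genes were *Col6a1*, *Col6a2*, *Col12a1*, *Col6a3*, *Col14a1*, *Col16a1*, *Col9a3*, *Col9a1*, *Col9a2* and *Col22a1*. The order was the same in both genotypes but for *Col12a1* and *Col6a2*, which were close to equal and changed places, and the spread over samples that would separate neighbours in this order is unknown.

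**Figure D2:**
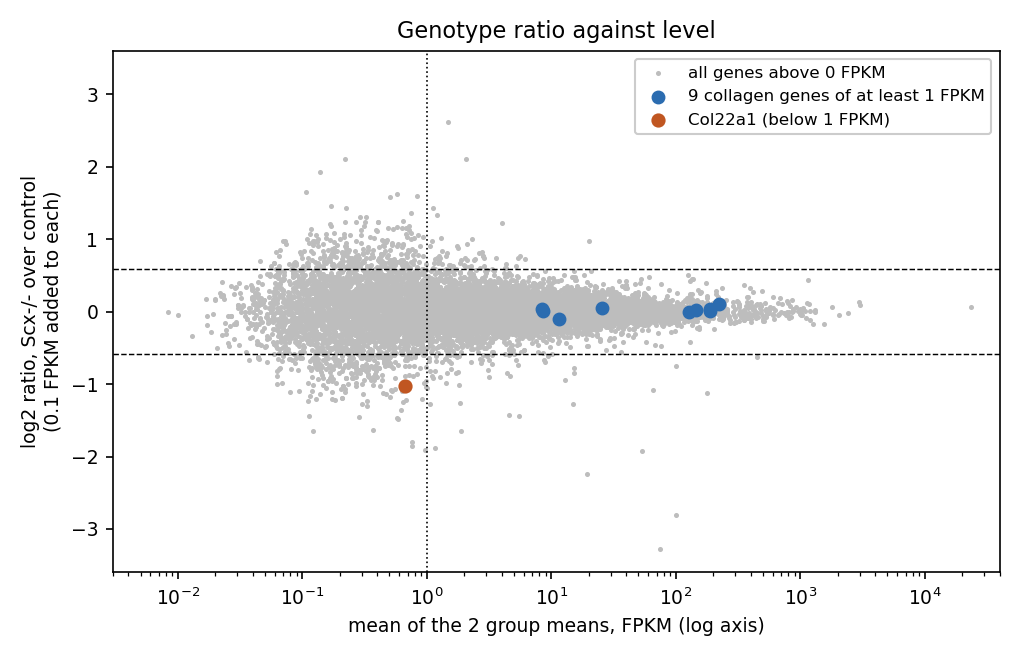
Log2 ratio of *Scx*-/- over control (0.1 FPKM added to both means) against the mean of the 2 group means in FPKM (log axis), with all genes in grey, 9 collagen genes in blue and *Col22a1* in orange. Dashed lines mark 1.5-fold and the dotted line 1 FPKM. The blue points lie between -0.10 and 0.11. *Col22a1* lies at -1.03, below 1 FPKM, where the grey points scatter more widely than above it.

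Other genes of these families were low or, for *Col6a6*, at the level of *Col16a1*. *Col6a6*, which encodes a further collagen VI chain, had 25.4 FPKM in control cells and 30.0 FPKM in *Scx*-/- cells, a log2 ratio of 0.24. *Col6a5* had 1.15 and 1.18 FPKM, and *Col6a4* 0.094 and 0.101 FPKM, in the same order. These 3 chains can stand in for the alpha 3 chain, and all 3 had higher means in the mutant, though none passed 1.5-fold with at least 1 FPKM. Of the other fibril-associated collagens, *Col19a1* had 0.939 FPKM in control cells and 0.744 FPKM in *Scx*-/- cells, and *Col20a1* 0.288 and 0.483 FPKM. *Col21a1* was not analysed here.

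Of the fibril-forming collagens, on which the fibril-associated collagens sit, 8 chains were listed for comparison. Their means lay on both sides of control, with 5 of the 8 below it and 3 above it. Of the 8 chains, 1 was more than 1.5-fold lower in *Scx*-/- cells and 0 were higher, with a median log2 ratio of -0.15. No test compared these chains with the 10 genes. That chain was *Col11a2*, of collagen XI, with 6.74 FPKM in control cells and 2.44 FPKM in the mutant. The 2 chains of highest level, *Col1a1* and *Col1a2* of collagen I, had 1333 and 1249 FPKM in control cells and 1178 and 1153 FPKM in *Scx*-/- cells. *Col2a1*, which encodes the collagen of the fibrils that carry collagen IX, had 78.3 FPKM in control cells and 57.1 FPKM in the mutant, a log2 ratio of -0.46, beside -0.10 to 0.03 for the 3 collagen IX chains. *Col11a1*, also of collagen XI, had 87.8 FPKM in control cells and 63.1 FPKM in the mutant. The 3 chains above control were *Col3a1*, *Col5a1* and *Col5a2*, of collagens III and V, with log2 ratios of 0.12, 0.02 and 0.08. *Col3a1*, of a fibrillar collagen that forms fibrils with collagen I, had 1094 FPKM in control cells and 1189 FPKM in *Scx*-/- cells. *Col2a1*, *Col11a1* and these 3 chains were chosen after their values were seen.

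Matrix partners and receptors of these collagens lay on both sides of control, with 9 below and 8 above it among those of at least 1 FPKM. Of the 19 listed, 17 had at least 1 FPKM, and of these 1 was more than 1.5-fold lower, 0 were higher, and the median log2 ratio was -0.02. The lower one was *Fmod*, whose product fibromodulin binds collagen I fibrils, with 84.7 FPKM in control cells and 22.3 FPKM in *Scx*-/- cells and a log2 ratio of -1.92. The 2 partners of highest level, *Dcn* and *Bgn*, encode decorin and biglycan, small proteoglycans that bind fibrillar collagens and collagen VI. *Dcn* had 668 FPKM in control cells and 649 FPKM in the mutant, and *Bgn* had 627 and 633 FPKM. The alpha chains of the collagen-binding integrins all had lower means in the mutant, at log2 ratios of -0.30 for *Itga1*, -0.51 for *Itga2*, -0.17 for *Itga10* and -0.23 for *Itga11*, none past 1.5-fold. *Tnxb*, which encodes the matrix protein tenascin X, had a log2 ratio of 0.32, the highest among the 17. These 5 genes were chosen after their values were seen. The plot of ratios by gene list shows the 9 collagen genes in a narrow band around 0.

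**Figure D3:**
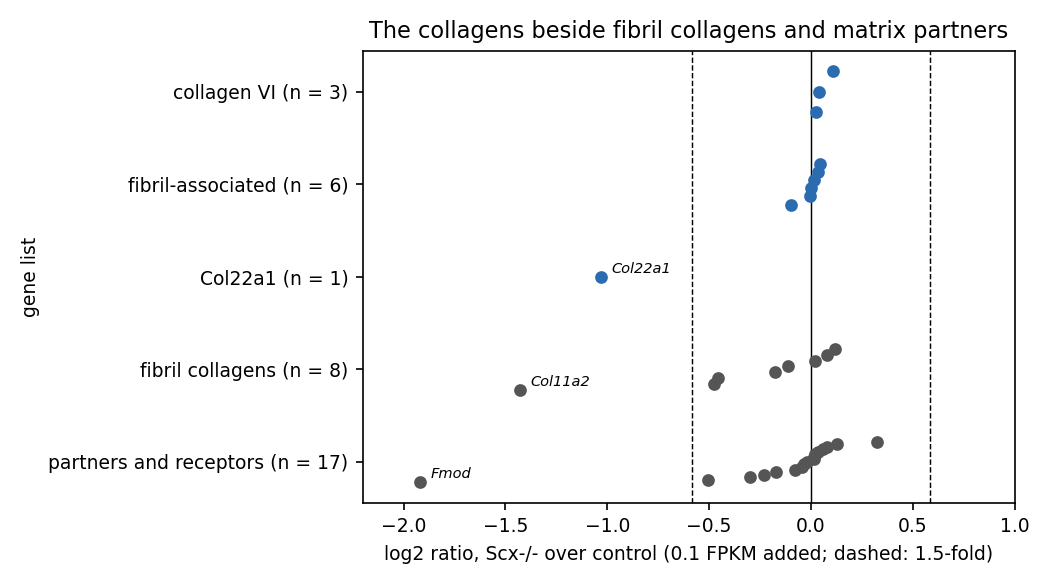
Log2 ratio of *Scx*-/- over control (0.1 FPKM added to both means) for each gene, by list, with genes of at least 1 FPKM and *Col22a1*, which is lower. Dashed lines mark 1.5-fold, and the genes named in the plot, *Col22a1*, *Col11a2* and *Fmod*, are those past it.

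*Scx* itself had 88.6 FPKM in control cells and 41.9 FPKM in *Scx*-/- cells, a log2 ratio of -1.08, so reads were still assigned to the gene although its coding sequence was replaced. The tendon markers were chosen with earlier results of these data known, so they give no independent readout of tendon cells. All 8 had lower means in the mutant, 4 of them by more than 1.5-fold, and their sum was 3221 FPKM in control cells and 2587 FPKM in *Scx*-/- cells. Without *Col1a1* and *Col1a2*, which make most of this sum, the other 6 markers summed to 639 FPKM in control cells and 255 FPKM in *Scx*-/- cells, and *Scx* is 1 of the 4. The sorted cells also held RNA of other cell types, with muscle markers summing to 352 and 385 FPKM, red cell markers to 178 and 240.4 FPKM, epidermis markers to 20.8 and 25.2 FPKM, endothelium markers to 23.7 and 23.4 FPKM, macrophage markers to 5.86 and 6.60 FPKM and nerve and glia markers to 3.10 and 3.68 FPKM, in control and *Scx*-/- cells. *Actc1* made most of the muscle sum, with 292 and 323 FPKM, and 3 of the 7 muscle markers had lower means in the mutant. Cartilage markers, with 8 of 9 in the table, summed to 119.6 FPKM in control cells and 92.4 FPKM in the mutant. *Col2a1*, with 78.3 and 57.1 FPKM, made most of this sum. Of the 5 with at least 1 FPKM, 4 had lower means in the mutant. Their log2 ratios were -1.43 for *Col11a2*, -0.54 for *Acan*, -0.46 for *Col2a1* and -0.03 for *Hapln1*, beside 0.03 for *Sox9*. No marker that was found stood at 0. *Xist*, which is transcribed in female cells, had 174.7 FPKM in control cells and 24.9 FPKM in *Scx*-/- cells, and the labels do not give the sex of the embryos, so that sex and genotype cannot be told apart in these means. Of the genes named above, *Scx*, *Fmod*, *Col1a1* and *Col1a2* are on the tendon list, and *Col2a1* and *Col11a2* are on the cartilage list. The part of these differences in the collagen values was not tested.

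Scx peaks were assigned to genes by basal plus extension domains. The domain of a protein-coding gene of GENCODE release M21 runs from 5 kb before its start to 1 kb after it and on to the domains of its neighbours, by at most 1000 kb. By this rule 8 of the 10 genes had at least 1 peak, against 34.7% of all protein-coding genes, 46.9% of those of at least 1 FPKM and 54.1% of those of at least 100 FPKM. The genes gave 29 pairs with 28 peaks, since *Col6a1* and *Col6a2* share 1 peak. Their domains were long, with a median of 319 kb against 89.4 kb over all 21938 genes, and per 100 kb of domain they held 0.764 peaks against 0.441 over all genes and 0.595 over genes of at least 1 FPKM. *Col12a1* had 9 peaks, *Col14a1* 7, *Col6a3* 5, *Col16a1*, *Col6a1* and *Col6a2* 2 each, and *Col22a1* and *Col9a1* 1 each. *Col9a2* and *Col9a3* had 0, and their nearest peaks lay 214 kb and 104 kb from the gene start. Extended by at most 100 kb, the domains held 9 peaks in place of 28, and collagen IX and *Col22a1* then had 0, so the count is largely one of distant regions.

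**Figure D4:**
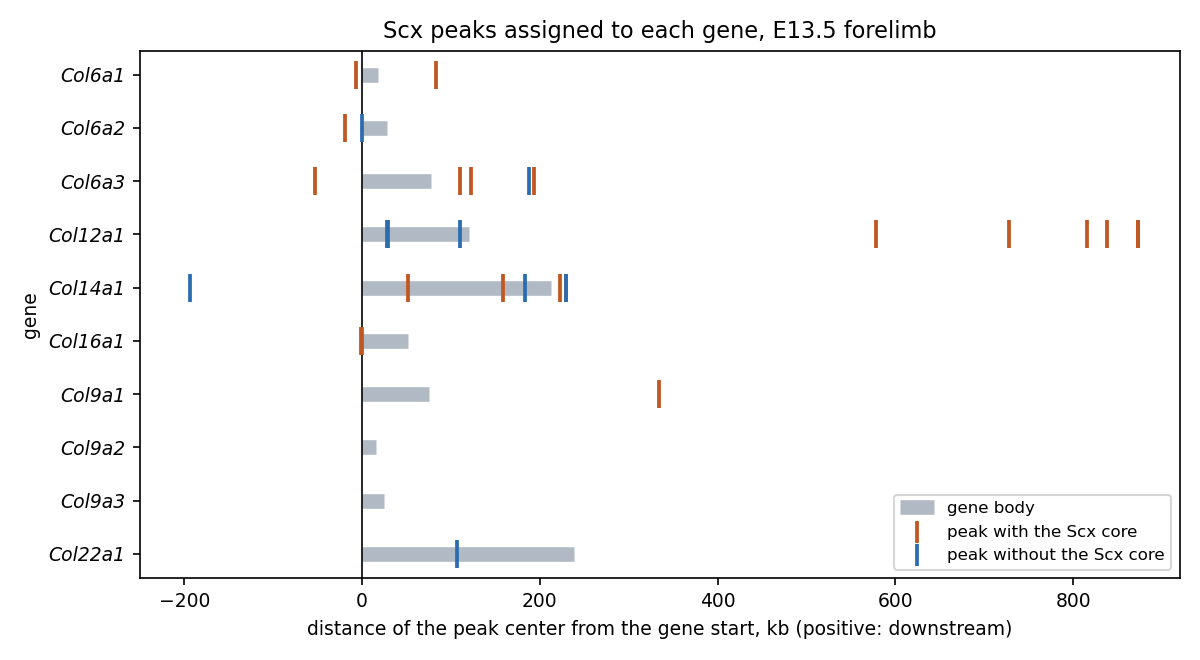
Distance in kb of each peak center from the start of its gene, in the direction of transcription, with peaks that hold the Scx core in orange, peaks without it in blue and the gene body in grey. Peaks near the start are seen at *Col16a1*, *Col6a2* and *Col6a1*, peaks within the gene at *Col12a1*, *Col14a1* and *Col22a1*, and 6 peaks lie far downstream of *Col12a1*. Marks of peaks less than 2 kb apart overlap.

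Within 5 kb of the gene start, 2 of the 10 genes had a peak, against 14.5% of all protein-coding genes and 24.2% of those of at least 1 FPKM. At *Col16a1*, which lies on the plus strand at chr4:130047840-130099283, a peak was centered 130 bp upstream of the start, in a promoter of 76.0% GC that overlaps the antisense gene *Gm12963* and holds 1 CAGCTG near the peak's end. The second peak of *Col16a1*, 1548 bp upstream in an intron of *Gm12963*, has 45.0% GC and holds CAGATG at 2 places and CAGCTG between them. These 2 peaks were assigned to no other gene. At *Col6a2*, on the minus strand at chr10:76595762-76623630, a peak at chr10:76623338-76623537 was centered 193 bp downstream of the gene start and 112 bp upstream of the start of a shorter transcript. This peak lies in the untranslated first exon of the longer transcript, has 71.5% GC and holds 1 TGGAAA but 0 E-boxes of any kind.

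Around the collagen VI genes the peaks were otherwise intergenic. *Col6a1*, at chr10:76708792-76726168 beside *Col6a2*, had a peak 6767 bp upstream of its start with CATCTG 8 bp from the center and CAGCTG 62 bp from it. The peak between the genes lay 83134 bp downstream of the start of *Col6a1* and 19404 bp upstream of that of *Col6a2*. It holds CAGCTG flanked by TGGAAA on both sides, the nearer one 30 bp away. *Col6a3*, at chr1:90765923-90843971 on the minus strand, had its nearest peak 52998 bp upstream, with CATCTG, and 4 more from 109690 to 193091 bp downstream of its start, past the end of the gene. The farthest of these held TGGAAA and 3 copies of the core, of which 2 lie within 10 bp of its center and are 1 base apart. Of the 5 peaks of *Col6a3*, 4 held the core and 3 held TGGAAA. They lie between *Col6a3* and its neighbours *Cops8*, to which 4 of them were assigned as well, and *Mlph*.

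Within the gene body, 4 of the 10 genes had a peak, against 18.5% of all protein-coding genes. The 10 genes were long, with a median of 63.3 kb against 17.4 kb over all protein-coding genes. The 2 shares were not matched for length or for expression level. In *Col12a1*, at chr9:79598991-79718831 on the minus strand, 3 peaks lay 28075, 29664 and 110401 bp downstream of the start. The first is in an exon of the antisense gene *4930562D21Rik*, the second in intron 13 of 65 and the third in a coding exon, and 0 of the 3 hold the core. The peak in intron 13 holds TTTCCA at 2 places. The other 6 peaks of *Col12a1* were 578 to 873 kb downstream, in the stretch between *Col12a1* and *Cd109* that holds no other protein-coding start, nearer to the start of *Cd109*, and all 6 hold the core. In *Col14a1*, at chr15:55307750-55520803 on the plus strand, peaks lay in introns 5, 35 and 42 of 47. The peak in intron 5 holds CATCTG 7 bp from its center with TGGAAA 42 bp away, that in intron 35 holds CATATG and that in intron 42 neither. Its other peaks were 1 at 194156 bp upstream, 1277 bp from the start of *Deptor*, and 3 from 223129 to 229374 bp downstream, of which 2 overlap each other.

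*Col22a1*, at chr15:71795795-72034227 on the minus strand, had 1 peak in 238 kb of gene, in intron 22 of 63 at 106886 bp from the start. It holds TTTCCA and no core, and it was assigned to *Fam135b* as well, which had 0.041 FPKM in control cells and 0.045 FPKM in *Scx*-/- cells. The peak of *Col9a1* lay 334048 bp downstream, inside *Col19a1*, and holds CAGATG. Of the 28 peaks, 23 were assigned to another gene too, the shared one of *Col6a1* and *Col6a2* included, and 5 to 1 of the collagen genes alone. The neighbours *Cd109*, *Cops8*, *Mtbp*, *Deptor* and *Pcbp3*, of 2.44 to 22.4 FPKM, had log2 ratios from -0.23 to 0.01. A deposited peak carries no height, since the score column holds 0 throughout, so strong and weak peaks cannot be told apart.

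The peaks of the collagen genes held the Scx core, TGGAAA and both together about as often as all Scx peaks. An E-box of any kind was more frequent in them. The core was present in 19 of 28 (67.9%, 95% Wilson interval 49.3 to 82.1%) and in 60.3% of all 12097 peaks. TGGAAA, on either strand, was present in 12 of 28 (42.9%, 26.5 to 60.9%) and in 31.5% of all peaks. Both together were found in 6 of 28 (21.4%, 10.2 to 39.5%) and in 21.9% of all peaks. For these 3 motif counts the interval includes the share of all peaks. An E-box of any kind, CANNTG, was found in 27 of 28 (96.4%, 82.3 to 99.4%) and in 78.4% of all peaks, and every core is also such an E-box. This difference was not tested. The 28 peaks are not independent, since 1 pair overlaps and *Col12a1* and *Col14a1* gave 9 and 7 of them. The intervals cover counting error.

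**Figure D5:**
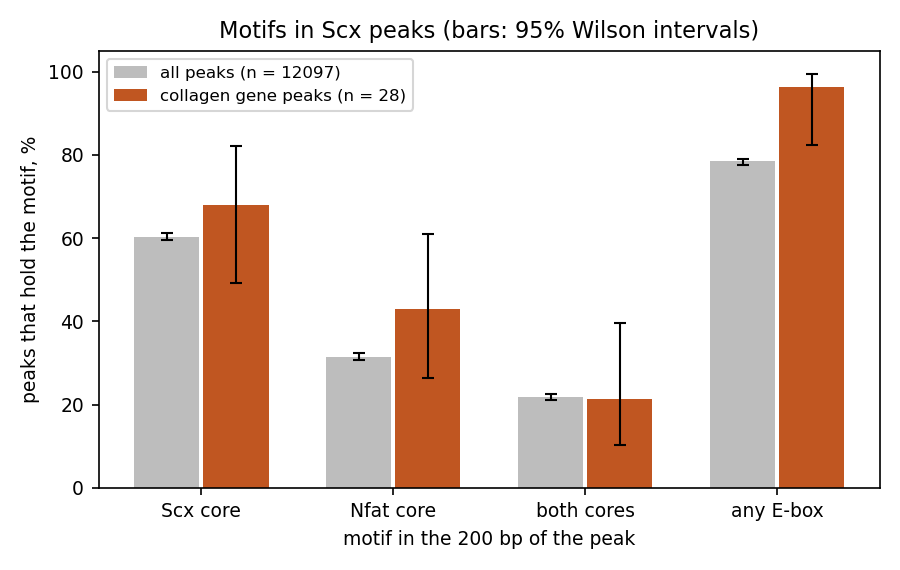
Share of peaks in percent that hold each motif on either strand within their 200 bp, for all 12097 peaks in grey and for the 28 peaks of the collagen genes in orange, with bars for 95% Wilson intervals. The interval of the collagen genes' peaks spans the share of all peaks for the Scx core, the Nfat core and both, and lies above it for any E-box, at 96.4% against 78.4%.

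Among the 28 peaks the core was less frequent within the collagen genes than outside them, a split that was not tested. It was present in 2 of the 8 peaks within the collagen genes (95% Wilson interval 7.15 to 59.1%) and in 17 of the 20 outside them (85.0%, 64.0 to 94.8%). For all peaks the split was by any protein-coding gene. The core was in 53.7% of 6670 peaks within such genes and in 68.6% of 5427 outside them. The 20 peaks outside the collagen genes include some inside other genes, such as *Col19a1* and *Mrpl13*, so the 2 splits differ. Each of the 2 intervals includes the broader share on its side. *Col12a1* alone gave 3 of the 8 peaks and 6 of the 17 with the core. By location 14 of the 28 peaks were intergenic, 13 of them with the core, and 9 were intronic, 5 of them with the core. Another 3 were in promoters, 1 of them with the core, and the other 2 were in exons and lacked it. The promoter peaks lay at *Col16a1*, at *Col6a2* and, 194156 bp upstream of *Col14a1*, at the gene *Gm9920*. By form, CAGATG or its reverse complement CATCTG was in 11 peaks, CAGCTG in 10 and CATATG in 4, that is 39.3%, 35.7% and 14.3%, against 38.9%, 28.0% and 7.18% of all peaks. The median GC of the 28 peaks was 48.2% against 49.5% over all peaks, with a range of 36.0 to 76.0%.

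RefSeq promoter windows of GRCm38.p6, from 250 bases before to 50 bases after a transcript start, were available for 6 of the genes, *Col6a1*, *Col6a2*, *Col6a3*, *Col9a1*, *Col9a2* and *Col16a1*, with 8 windows in all. The core was in 3 of 8 windows (37.5%), those of *Col16a1* and *Col9a2* with CAGCTG and 1 of the 2 of *Col9a1* with CAGATG, against 33.4% of all 32851 windows. TGGAAA was in 1 of 8 windows (12.5%), at *Col6a2*, against 21.4% of all windows. A Scx peak overlapped the window of *Col16a1* and 1 of the 2 of *Col6a2*. At *Col9a2* and *Col9a1* the window held the core and no peak was assigned within it.

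Number of peaks and ratio of the means can be set side by side for all 10 genes. *Col12a1* with 9 peaks had a log2 ratio of 0.00, *Col14a1* with 7 peaks -0.01, *Col6a3* with 5 peaks 0.02, *Col16a1* with 2 peaks near its start 0.05 and *Col6a2* with 2 peaks, 1 of them at its start, 0.04. *Col6a1*, with 2 peaks of which the nearer lies 6767 bp upstream, had 0.11, the highest ratio among the 10 genes, and *Col9a1* with 1 distant peak had 0.01. *Col9a2* and *Col9a3*, without a peak, had 0.03 and -0.10. The gene with the lowest ratio, *Col22a1*, had 1 intronic peak. All 8 of the listed fibril-forming chains had a peak, with 43 pairs of gene and peak. Their domains ran from 52.9 kb for *Col11a2* to 1264 kb for *Col11a1*. A peak was also assigned to 10 of the 19 partners and receptors and to 1, *Col19a1*, of the other 5 collagens of these families. Beside these counts stand 34.7% of all protein-coding genes and 46.9% of those of at least 1 FPKM.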

How the data were processed

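RNA-seq covered 3 control and 3 *Scx*-/- samples of sorted E15.5 forelimb cells, and ChIP-seq 3 anti-FLAG and 3 input samples of E13.5 forelimbs. The authors deposited normalized FPKM as the mean of each group. By their methods reads were aligned to mm10 with STAR 2.7.4 and counted per gene with featureCounts of Subread. To limit effects of embryo sex, the authors left out genes of chromosome Y and applied RUVs before the genotypes were compared. The authors' own log2 fold change, p-value, FDR and status columns were not used. The depth per sample is unknown, and 3 embryos a group limit the precision. ChIP reads were down-sampled to equal depth, deduplicated and called with HOMER 4.11 per sample against input. Peaks were then merged over the replicates and kept by an edgeR test of ChIP against input, so single replicates could not be compared.

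Values were computed with samtools 1.23.1 and with Python 3.11.15, using pandas 2.3.3, matplotlib 3.10.9, numpy 2.4.6 and scipy 1.17.1. A pseudocount of 0.1 FPKM, a minimum mean of 1 FPKM and a fold of 1.5 were used. A test on single samples had been planned, but the expression table used here holds group means, so no test was run. Promoters were taken as 1000 bp upstream to 100 bp downstream of any transcript start. Intron numbers refer to the longest coding transcript. All 12097 peaks lay within the GRCm38.p6 chromosomes, from which the printed sequences were read. The ratio and motif steps were tested on simulated data. All 10 genes were named. From the lists of fibril collagens and of partners and receptors, those past 1.5-fold and the 2 of highest level were named, and of the peaks those within 5 kb of a start or in a gene body and the nearest one of each gene. Peaks named beyond this rule were chosen after their values were seen. The genes and lists were chosen with earlier results of these data known. Alternatives changed the pseudocount, the minimum level, the centring, the fold, the rule that assigns peaks and the width searched for motifs.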

Additional observations from a re-analysis of the deposited data

How the results depend on the processing

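With no minimum level, 1 of the 10 genes passed 1.5-fold in place of 0 of 9, and that gene was *Col22a1*. Its log2 ratio was -1.03 with 0.1 FPKM added, -0.46 with 1 FPKM and -1.18 with 0.01 FPKM. Of all genes, 121 passed 1.5-fold, against 43 with 1 FPKM added, 675 with no minimum level, 23 with a minimum of 5 FPKM, 691 past the lower and 22 past the higher fold tried, counts that follow from the thresholds. The number of peaks assigned to the 10 genes was 28, against 9 with domains extended by at most 100 kb, 11 by the single nearest gene start and 12 in the gene body and 10 kb around it. It was 21 for peaks within 250 kb of the start, a limit chosen after seeing the data. The genes with a peak numbered 8 and, under these 4 rules, from 6 to 7. In the central 100 bp of the 28 peaks the Scx core was found in 16 and the Nfat core in 8, where 47.4% and 20.6% of all peaks held them. The backgrounds at matched levels were also chosen after seeing the data. No paired analysis was possible because the expression table used here holds means of each group, and for the same reason no sample could be left out. Depth is unknown, so counting error is unknown as well and weighs most on *Col22a1*.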
